A study of Mus musculus with 36 samples.

Results

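The 10 genes described here encode the transcription factor NRF2 (Nfe2l2), 6 of its antioxidant targets (Nqo1, Gclm, Gclc, Txnrd1, Srxn1 and Slc7a11) and 3 enzymes of the pentose phosphate pathway (G6pdx, Pgd and Taldo1). They were taken by symbol from a table of 29883 genes, 17197 of them protein-coding, and followed through all 12 groups of the experiment. All 10 were in the table and passed the low-count filter in macrophages and in tumour cells. Their counts ran from 72 for Nqo1 to 14703 for Pgd in a single library.

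The transcriptomes were those of mouse bone-marrow-derived macrophages and of the glioma cell line PDG-Ink4a Recurrent, whose model carries enforced PDGFB expression in Nestin-positive progenitors and lacks Ink4a/Arf. Cells were purified from co-culture of both types or from mono-culture and given myelin debris, the fragments of the lipid-rich sheath of nerve fibres. The groups were macrophages in co-culture, macrophages in mono-culture, tumour cells in co-culture and tumour cells in mono-culture, each without myelin (the labelled control, here 0 h) and at 6 h and 24 h after it. Each of the 12 groups held 3 libraries, numbered 001, 002 and 003. The sources used here give no strain, age or number for the mice that gave the marrow, and the tumour cells are a single line. Whether the 3 libraries of a group are separate cultures or animals is not stated, so p-values measure the spread between libraries, which may be technical. Nor is it stated how long the 0 h cultures were maintained, so that myelin and time in culture cannot be told apart.

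NRF2 is held at low levels by KEAP1, which marks it for degradation, and is freed when electrophiles or oxidants modify KEAP1. It then binds antioxidant response elements with small MAF proteins, in competition with BACH1, and raises genes for glutathione synthesis, the thioredoxin system and NADPH supply. In macrophages the same NADPH feeds both the reductases that detoxify peroxides and the NADPH oxidase that makes superoxide, while glioma cells draw on the pathway to withstand oxidative stress. Because the control acts mainly on the protein, the level of Nfe2l2 mRNA is not a measure of NRF2 activity.

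An antioxidant response element has the core TGACNNNGC. The 300-base windows that RefSeq gives for each gene start (250 bases before it and 50 after, build GRCm38.p6) were searched on both strands for this core and for the composite form TGANTCAGC. Of the 9 members with a window, 6 held the core (66.7%), against 14% of 27025 genes and 12.4% of 32851 windows, and Srxn1 alone also held the composite form, against 1.37% of genes. The stretches below show the matches that lie upstream of the start, which for Srxn1 is the composite form and for the others the core, with 10 bases on each side, written 5′ to 3′ on the gene's strand and with the motif in capitals. In Gclm, Txnrd1 and G6pdx the core reads from the opposite strand.
Gclm, chr3:122245413-122245441, plus strand: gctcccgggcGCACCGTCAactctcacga
Txnrd1, chr10:82859104-82859132, plus strand: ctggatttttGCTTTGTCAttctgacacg
Srxn1, chr2:152105469-152105497, plus strand: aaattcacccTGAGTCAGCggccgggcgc
G6pdx, chrX:74428919-74428947, minus strand: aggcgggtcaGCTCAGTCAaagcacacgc
Nfe2l2, chr2:75704885-75704913, minus strand: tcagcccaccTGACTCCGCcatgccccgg
The cores of Pgd and Srxn1 lie beyond the start, and the windows of Nqo1, Slc7a11 and Taldo1 held neither motif. A match is a run of letters and not a measured binding site.

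Total counts per library were 7911378 to 15319104 with a median of 12262573. The 14 macrophage markers, among them Csf1r, Adgre1 and Lyz2, summed to 14577 to 24206 CPM in macrophage libraries and 14.1 to 1921 CPM in tumour cell libraries, and 13 of them were higher in macrophages in mono-culture at 0 h. In each tumour cell group at least 13 of them also reached 1 CPM. Of 15 tumour cell markers measured 10 were tested there, and 9 were lower in macrophages, while Nes was higher, at 65.2 CPM in macrophages and 30.0 CPM in tumour cells. In each group of co-cultured macrophages 8 of the 15 also reached 1 CPM, and in tumour cells the glial genes Olig1, Ptprz1, Bcan, Gfap and Ncan stood at or near 0. By 50 marker genes per cell type, co-cultured macrophage libraries held 0.967% to 4.91% tumour cell RNA and mono-cultured ones at most 0.0801%. Tumour cell libraries held at most 2.33% macrophage RNA, with the share low in those numbered 001. In the libraries numbered 001 the share of CT010467.1 in all counts reached 17.4%. Mobp, a myelin gene, was at 0 in both macrophage groups at 0 h and averaged 2.97 CPM in co-culture and 2.87 CPM in mono-culture at 6 h. In these bulk samples fewer cells of a type and less RNA per cell cannot be told apart.

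**Figure D1:**
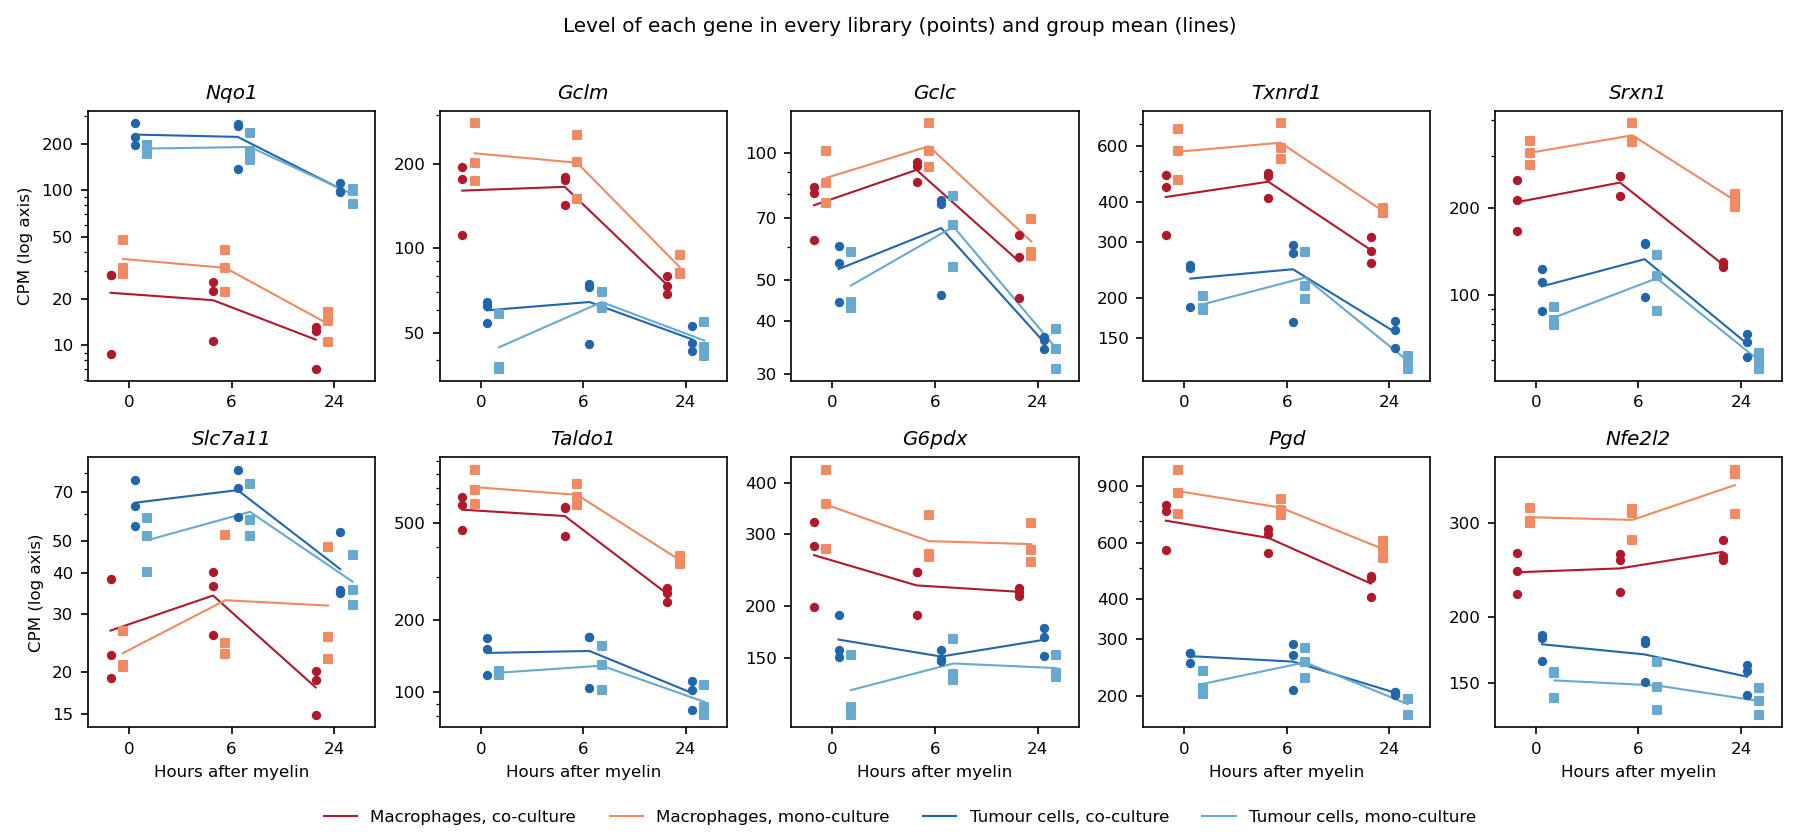
Level of each gene (CPM after TMM normalisation, log axis) by hours after myelin, with 3 libraries per group as points and the group means as lines, in co-culture and mono-culture of macrophages (red and orange) and tumour cells (dark and light blue). Most members lie higher in macrophages, Nqo1 lies higher in tumour cells, and the mean of 8 members, all but Slc7a11 and Nfe2l2, is lower at 24 h than at 0 h in mono-cultured macrophages.

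Before myelin, the antioxidant and pentose phosphate genes stood higher in macrophages than in tumour cells, with Nqo1 and Slc7a11 as exceptions. In mono-culture at 0 h, 8 members were higher, against 32.4% of all genes, and 2 lower, against 37.7% (edgeR quasi-likelihood, Benjamini-Hochberg adjusted p under 0.05, n = 3 against 3). A share of 70% of the 14776 genes tested passed between the cell types, so that passing by itself sets no member apart. The median difference was 1.54 on the log2 scale over the members and -0.04 over all genes tested. All levels are in CPM, counts scaled to library size after TMM normalisation over the 36 libraries, which are not scaled by gene length and serve to compare groups within a gene.

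Taldo1, the transaldolase that returns pentoses to glycolysis (chromosome 7, 141392199 to 141402968, mm10), had 599, 832 and 685 CPM in macrophages and 121, 123 and 118 CPM in tumour cells (log2 difference 2.55 ± 0.19 SE). Gclm, the regulatory subunit of glutamate-cysteine ligase (chromosome 3, 122245557 to 122270732), had 174, 280.1 and 203 CPM in macrophages and 58.2, 37.6 and 37.2 CPM in tumour cells (2.31 ± 0.22). Pgd, the second NADPH-producing dehydrogenase of the pentose phosphate pathway (chromosome 4, 149149991 to 149166771), had 736, 1011 and 854 CPM in macrophages and 239.7, 211 and 203 CPM in tumour cells (1.99 ± 0.13). No library of these 3 genes overlapped between the cell types, nor did one of the other 7, as for 71.7% of all genes. Srxn1, sulfiredoxin, which repairs overoxidised peroxiredoxins (1.88 ± 0.16), Txnrd1, the cytosolic thioredoxin reductase (1.59 ± 0.18), and Nfe2l2 (1.02 ± 0.10) were higher too. The smallest of the 8 differences was that of Gclc, the catalytic subunit of glutamate-cysteine ligase (0.85 ± 0.17, adjusted p = 0.000101 by edgeR).

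Nqo1, a quinone reductase that uses NADPH or NADH (chromosome 8, 107388225 to 107403206), had 29.0, 47.7 and 31.7 CPM in macrophages and 196, 172 and 190.2 CPM in tumour cells (log2 difference -2.36 ± 0.34, edgeR adjusted p = 8.15e-07). Slc7a11, the cystine importer that feeds glutathione synthesis (chromosome 3, 49892526 to 50443614), had 26.7, 21.0 and 20.8 CPM in macrophages and 58.5, 51.7 and 40.3 CPM in tumour cells (-1.14 ± 0.30, edgeR adjusted p = 0.00151). Both genes were thus lower in every macrophage library than in any tumour cell library at 0 h, and for Nqo1 this held over all times and cultures, with 47.7 CPM the highest macrophage value and 81.0 CPM the lowest tumour cell value. All 10 calls held under every alternative run, which for the cell types were 12.

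**Figure D2:**
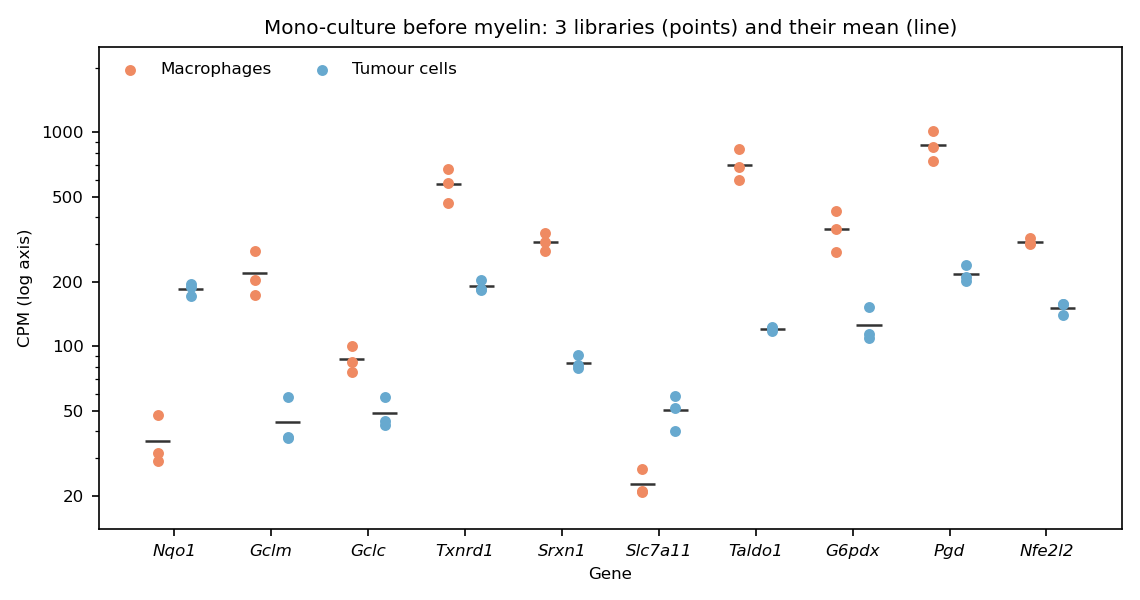
Level of each gene in mono-culture at 0 h (CPM after TMM normalisation, log axis), with 3 macrophage libraries beside 3 tumour cell libraries as points and their mean as a line. The 2 cell types do not overlap for any gene, with Nqo1 and Slc7a11 lower and the other 8 higher in macrophages. Heights are to be compared within a gene.

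Most of these genes were lower in macrophages 24 h after myelin. The next comparison asked what mono-cultured macrophages did at 24 h against 0 h. Of the 10 members 7 fell and none rose, against 7.61% of the 13165 genes tested that were called lower and 15.2% called in either direction. The 7 were Nqo1, Gclm, Gclc, Txnrd1, Srxn1, Taldo1 and Pgd, and for each of them all 24 h libraries lay below all 0 h libraries, as for 10.1% of all genes. The median change was -0.60 over the members and -0.00 over all genes, on the log2 scale.

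Among the glutathione genes, Gclm had 81.4, 94.6 and 81.2 CPM at 24 h, against 174, 280.1 and 203 CPM at 0 h. It thus fell to 0.384 of its 0 h level (log2 change -1.38 ± 0.21 SE, edgeR adjusted p = 0.000678), with the 24 h libraries close together and the 0 h libraries spread. Gclc (chromosome 9, 77754535 to 77794485) fell less, to 57.1, 69.6 and 58.4 CPM at 24 h, against 76.0, 100.8 and 84.7 CPM at 0 h (-0.53 ± 0.13, adjusted p = 0.0125). The call of Gclc was lost without 0 h library 002 (adjusted p = 0.0801) or 24 h library 003 (0.0525). Slc7a11, the source of cystine for the pathway, had 47.9, 21.9 and 25.6 CPM at 24 h, against 26.7, 21.0 and 20.8 CPM at 0 h, and did not pass (0.45 ± 0.37, adjusted p = 0.464). Its groups overlapped, and library 001 held the highest value at both times.

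In the thioredoxin arm, Txnrd1 (chromosome 10, 82833951 to 82897712) had 368, 384 and 369.5 CPM at 24 h, against 468, 675 and 579 CPM at 0 h (-0.65 ± 0.14, edgeR adjusted p = 0.00615). Srxn1 (chromosome 2, 152105516 to 152111376) had 222, 201 and 212 CPM at 24 h, against 279, 338 and 308 CPM at 0 h (-0.57 ± 0.11, adjusted p = 0.00275). Both lay lower in every 24 h library. Nqo1 had 16.4, 14.5 and 10.4 CPM at 24 h, against 29.0, 47.7 and 31.7 CPM at 0 h, the largest fall of the 10 and the least precise (-1.42 ± 0.40, adjusted p = 0.0269). Its call was lost without 0 h library 002 or 003 and without 24 h library 002 or 003, with adjusted p of 0.052 to 0.131, and without the low-count filter (0.0937).

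Of the pentose phosphate enzymes, Taldo1 fell to 352, 340.3 and 365 CPM at 24 h, against 599, 832 and 685 CPM at 0 h (-1.03 ± 0.12, edgeR adjusted p = 9.39e-05). Pgd fell to 606, 536 and 576 CPM at 24 h, against 736, 1011 and 854 CPM at 0 h (-0.63 ± 0.12, adjusted p = 0.00275). G6pdx, the rate-limiting dehydrogenase at the head of the pathway (chromosome X, 74409483 to 74429194), had 274, 257 and 319.6 CPM at 24 h, against 276, 430.2 and 355 CPM at 0 h. These groups overlapped and G6pdx did not pass (-0.35 ± 0.15, adjusted p = 0.138), though it did without 0 h library 001 (-0.48, adjusted p = 0.0401). G6pdx overlaps Ikbkg on the opposite strand, whose counts amounted to 51% of its own, and with the strand setting not stated their reads cannot be told apart. Nfe2l2 itself (chromosome 2, 75675513 to 75704641) had 379, 312 and 371 CPM at 24 h, against 303, 301 and 320.3 CPM at 0 h (0.17 ± 0.10, adjusted p = 0.279). The regulator's mRNA was thus not called lower where 7 of its partners in the list were.

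**Figure D3:**
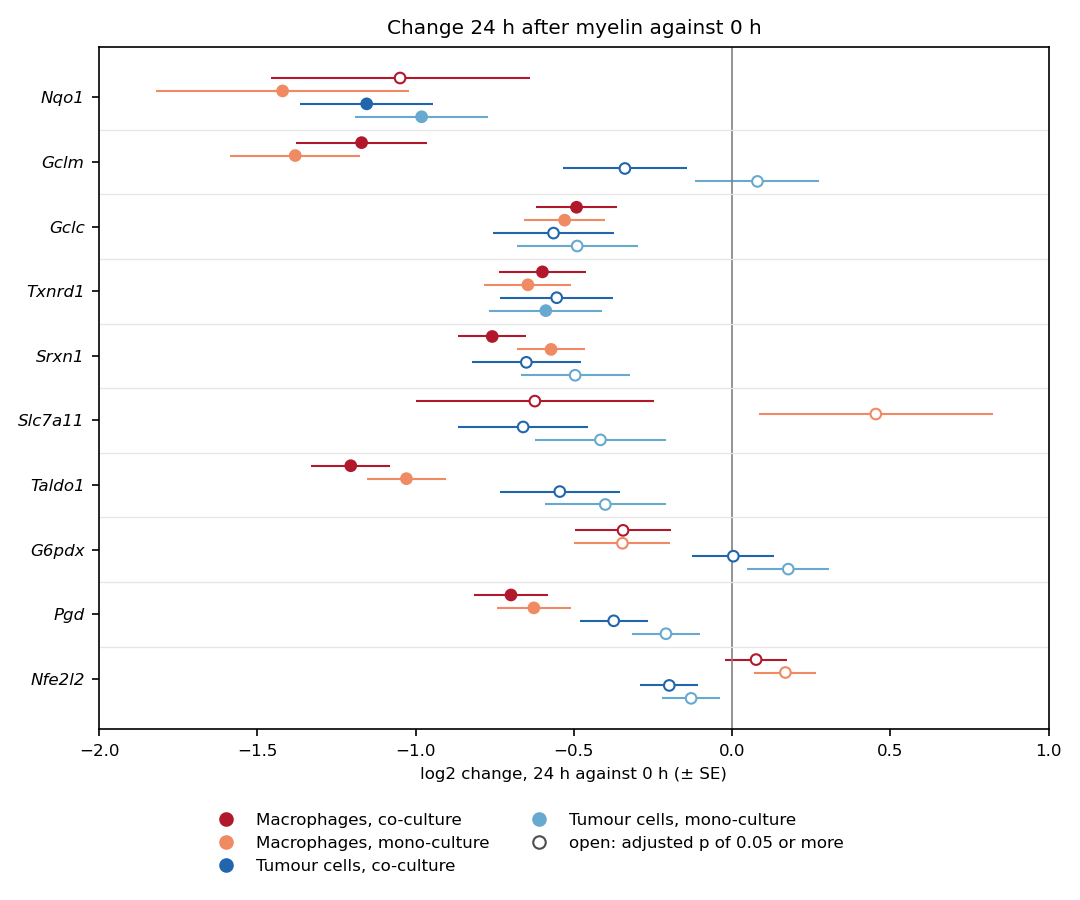
Change of each gene at 24 h against 0 h (log2, with 1 SE as a bar) in macrophages and tumour cells in co-culture and mono-culture, 3 libraries against 3 each. Filled points passed an adjusted p of 0.05 by edgeR and open points did not. Gclm and Taldo1 of macrophages are filled in both cultures, at -1.03 to -1.38, while Nfe2l2 and G6pdx have open points throughout.

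In co-cultured macrophages 6 members fell at 24 h and none rose, against 6.02% of all genes called lower and 11.4% in either direction. They were Gclm, Gclc, Txnrd1, Srxn1, Taldo1 and Pgd. The median change was -0.66 over the members and -0.01 over all genes. Taldo1 had 271, 258 and 237 CPM at 24 h, against 467, 596 and 644 CPM at 0 h (-1.21 ± 0.12, edgeR adjusted p = 6.53e-05). Gclm had 73.2, 79.8 and 68.9 CPM at 24 h, against 112, 177 and 195 CPM at 0 h (-1.17 ± 0.21, adjusted p = 0.00283). For 5 of the 6 (not Gclc) each 24 h library lay below each 0 h library, as for 11.1% of all genes.

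Srxn1 had 125, 129 and 129.7 CPM at 24 h, against 166, 212 and 248 CPM at 0 h (-0.76 ± 0.11, edgeR adjusted p = 0.000671), and Pgd fell by 0.70 ± 0.12 (adjusted p = 0.00201). Txnrd1 fell by 0.60 ± 0.14 (0.0109), and lost its call without 0 h library 002 (0.0512) or 003 (0.065). Gclc fell by 0.49 ± 0.13 (0.0225), and lost it without 0 h library 002 or 003 or 24 h library 001 or 003, with adjusted p of 0.0625 to 0.101. Nqo1 had 7.09, 13.2 and 12.4 CPM at 24 h, against 8.77, 28.3 and 28.5 CPM at 0 h, and did not pass (-1.05 ± 0.41, adjusted p = 0.112). The low 0 h value is that of library 001, and without it Nqo1 passed (-1.39, adjusted p = 0.0242), as did G6pdx (-0.48, adjusted p = 0.041). By the tumour cell RNA in these libraries and the level of co-cultured tumour cells, 44.8% of the Nqo1 level at 24 h and 23.6% of that at 0 h would come from tumour cells, and 10.9% and 5.5% of the Slc7a11 level. For the other 8 members the share was at most 3.65%.

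The changes at 24 h were not shown to differ between the cultures. In the test of that difference 0 members passed by edgeR and 0 by DESeq2, 0 members had an unadjusted p under 0.05, and 0.0152% of all genes passed. The widest gap was that of Slc7a11, with a change of -0.62 ± 0.38 in co-culture and 0.45 ± 0.37 in mono-culture (difference -1.08 ± 0.53, edgeR adjusted p = 0.694).

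In macrophages at 6 h no change from 0 h was called for any member, which with 3 libraries a group does not show unchanged levels. In mono-culture 0 members passed by edgeR and by DESeq2 and 0 had an unadjusted p under 0.05, while 2.15% of all genes passed. In co-culture the counts were likewise 0, against 0.213% of all genes. The changes ran from -0.28 for G6pdx to 0.53 for Slc7a11 in mono-culture, and from -0.25 to 0.35 for the same genes in co-culture. Gclc had 85.4, 92.8 and 94.8 CPM at 6 h in co-culture, against 62.3, 80.3 and 82.8 CPM at 0 h (0.27 ± 0.13, edgeR adjusted p = 0.419). It was the only member whose libraries did not overlap at 6 h in either culture, as for 11.3% of all genes, higher at 6 h in co-culture. Since 6 h and 24 h share the 0 h libraries, their changes are not independent.

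Co-culture itself went with lower levels of these genes in macrophages. The comparison sets macrophages purified from co-culture against those kept alone at the same time. At 0 h, before myelin, 6 members were lower and none higher, against 6.02% of all genes called lower and 13.7% in either direction. At 6 h 5 were lower, against 4.12% of all genes called lower and 9.94% in either direction, and at 24 h 6, against 13.7% and 28%. Median differences over the members were -0.47, -0.42 and -0.51 at 0 h, 6 h and 24 h, and -0.02, -0.03 and -0.03 over all genes. Txnrd1, Srxn1, Taldo1, Pgd and Nfe2l2 passed at all 3 times, and G6pdx at 0 h and 24 h. The co-culture libraries lay wholly below those of mono-culture for 3 members at 0 h, 6 at 6 h and 8 at 24 h, as for 9.28%, 6.34% and 12.8% of all genes.

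Nfe2l2 had 220.4, 244 and 264 CPM in co-culture at 0 h, against 303, 301 and 320.3 CPM in mono-culture (-0.45 ± 0.10, edgeR adjusted p = 0.0063). At 24 h it had 256, 261 and 279 CPM in co-culture, against 379, 312 and 371 CPM in mono-culture (-0.54 ± 0.10, adjusted p = 0.000824). No library of Nfe2l2 overlapped between the cultures at either time, nor at 6 h (-0.42 ± 0.10, adjusted p = 0.0116). Its call at 6 h was lost without mono-culture library 001 (0.0522) or co-culture library 002 (0.0704) and with the compared groups alone (0.0747).

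Srxn1 showed the smallest adjusted p of the members at each time. It had 166, 212 and 248 CPM in co-culture at 0 h, against 279, 338 and 308 CPM in mono-culture (-0.66 ± 0.11, edgeR adjusted p = 0.000652). At 6 h it had 219, 256 and 256 CPM in co-culture, against 336, 389 and 337 CPM in mono-culture (-0.65 ± 0.11, adjusted p = 0.000898). At 24 h it had 125, 129 and 129.7 CPM in co-culture, against 222, 201 and 212 CPM in mono-culture (-0.85 ± 0.11, adjusted p = 4.5e-05). The cultures did not overlap at any time, and the calls held under all 13 alternatives. Txnrd1 was lower by a similar amount at 0 h, 6 h and 24 h (-0.57 ± 0.14, -0.52 ± 0.14 and -0.52 ± 0.14). Its levels at 24 h were 257, 309.8 and 281 CPM in co-culture, against 368, 384 and 369.5 CPM in mono-culture.

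Taldo1 was lower in co-culture at 0 h (-0.41 ± 0.12, edgeR adjusted p = 0.0372), 6 h (-0.41 ± 0.12, 0.0468) and 24 h (-0.58 ± 0.12, 0.00246), and Pgd at 0 h (-0.40 ± 0.12, 0.0298), 6 h (-0.43 ± 0.12, 0.0262) and 24 h (-0.48 ± 0.12, 0.0065). G6pdx had 212, 222 and 217 CPM in co-culture at 24 h, against 274, 257 and 319.6 CPM in mono-culture (-0.50 ± 0.15, adjusted p = 0.0214), and at 6 h did not pass (-0.47 ± 0.15, adjusted p = 0.0612). The calls of these 3 genes at 0 h were lost without co-culture library 001 or 002 or mono-culture library 002 or 003 (adjusted p of 0.0531 to 0.168). At 6 h Taldo1 lost its call without any one library (0.0593 to 0.204), Pgd without any but mono-culture library 003 (0.0549 to 0.112), and Txnrd1 without library 001 or 002 of either culture (0.053 to 0.0969). At 24 h G6pdx lost it without any but mono-culture library 002 (0.056 to 0.0821), and at 0 h Txnrd1 without mono-culture library 002 (0.0571). The libraries of co-culture held tumour cell RNA, at 2.26% ± 1.14, 1.91% ± 1.29 and 4.78% ± 0.15 (SD, n = 3 each) at 0 h, 6 h and 24 h, and 14 macrophage markers summed to 20028 to 24206 CPM in co-culture and 14577 to 18940 CPM in mono-culture. Of that sum Lyz2 held a mean of 11915 CPM in co-culture and 7782 CPM in mono-culture at 0 h. By edgeR 4 markers were higher and 1 lower in co-culture at 0 h, 2 and 2 at 6 h, and 7 and 4 at 24 h. Of all genes 13.7%, 9.94% and 28% were called at those times. The part of the tumour cell RNA and of the marker levels in the differences was not tested.

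Gclm, Gclc, Nqo1 and Slc7a11 did not pass between the cultures at any time. Nqo1 had 8.77, 28.3 and 28.5 CPM in co-culture at 0 h, against 29.0, 47.7 and 31.7 CPM in mono-culture (-0.82 ± 0.39, edgeR adjusted p = 0.191). Gclm was closest to passing at 0 h (-0.54 ± 0.20, adjusted p = 0.092), and when libraries of the same number were paired, Gclm (0.0413) and Gclc (0.0328) passed as well. Slc7a11 had 18.9, 14.9 and 20.2 CPM in co-culture at 24 h, against 47.9, 21.9 and 25.6 CPM in mono-culture, without overlap (-0.94 ± 0.37, adjusted p = 0.072). DESeq2 gave it an adjusted p of 0.0434, and edgeR 0.0407 without mono-culture library 002.

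**Figure D4:**
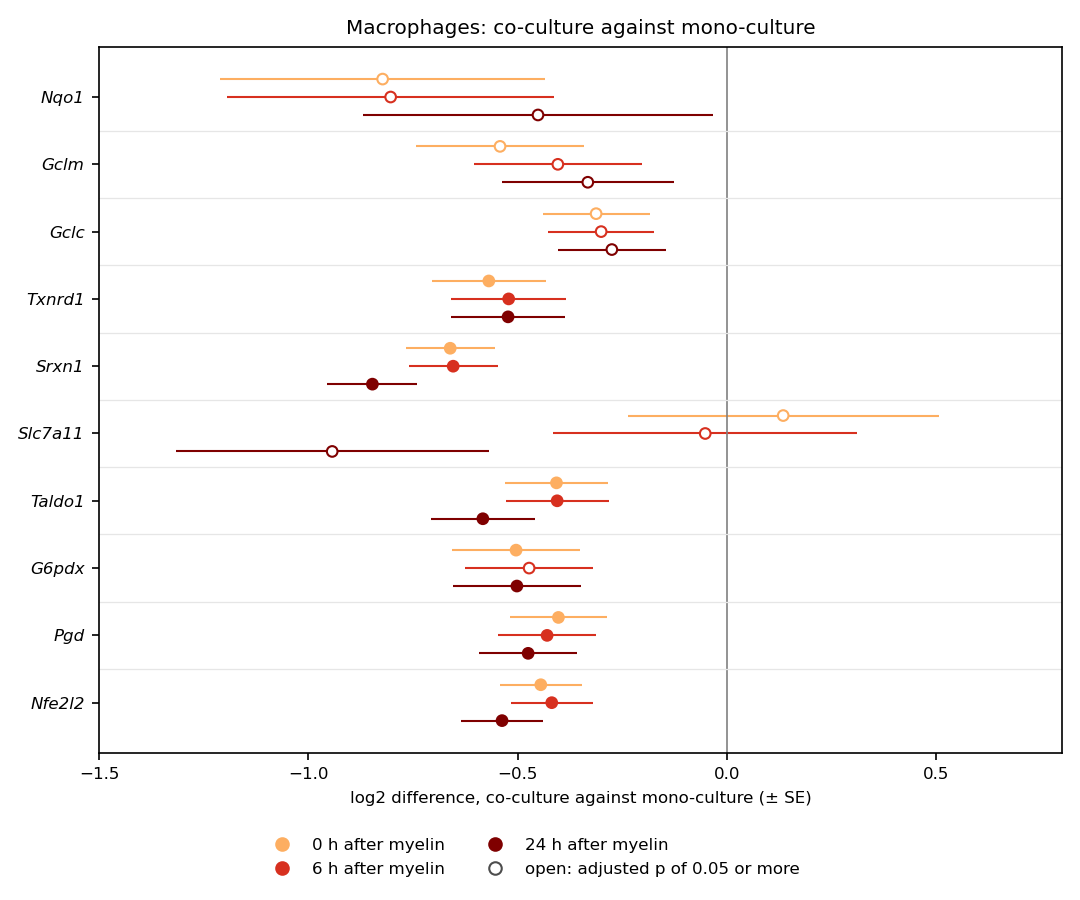
Difference of each gene between co-cultured and mono-cultured macrophages (log2, co-culture minus mono-culture, with 1 SE as a bar) at 0 h, 6 h and 24 h after myelin, 3 libraries against 3 each. Filled points passed an adjusted p of 0.05 by edgeR. All points but that of Slc7a11 at 0 h lie left of 0, and Srxn1, Txnrd1, Taldo1, Pgd and Nfe2l2 are filled at all 3 times.

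Tumour cells showed fewer calls. In mono-culture at 24 h 2 members fell, Nqo1 and Txnrd1, and none rose, against 6.81% of the 13603 genes tested that were called lower and 10.5% in either direction. In co-culture 1 fell, Nqo1, against 0.309% called lower and 0.787% in either direction. Macrophage RNA was 0.00127%, 1.61% and 2.18% of libraries 001, 002 and 003 of mono-culture at 24 h, against 0.0047%, 0.359% and 0.446% at 0 h, and the 14 macrophage markers had a median change of 2.12 with 0 called by edgeR. In co-culture its mean was 1.09% at 24 h, against 1.34% at 0 h. Its part in the changes at 24 h was not tested. The median changes over the members were -0.55 in co-culture and -0.41 in mono-culture, and -0.00 and 0.01 over all genes.

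Nqo1 had 97.6, 98.6 and 111 CPM at 24 h in co-culture, against 196, 219.9 and 269.6 CPM at 0 h (-1.15 ± 0.21 SE, edgeR adjusted p = 0.0193). In mono-culture it had 99.4, 81.0 and 102 CPM at 24 h, against 196, 172 and 190.2 CPM at 0 h (-0.98 ± 0.21, adjusted p = 0.0101). The libraries of the 2 times were apart in both cultures, and Nqo1 was called lower at 24 h in macrophages and tumour cells of mono-culture. Its call in co-culture was lost without 24 h library 001, 002 or 003 or 0 h library 002 or 003, with 0.112 as the highest adjusted p, and no gene of all tested passed when only the groups compared were fitted. Txnrd1 had 120.2, 129 and 132 CPM at 24 h in mono-culture, against 203, 186 and 183 CPM at 0 h (-0.59 ± 0.18, adjusted p = 0.0485), and lost its call without any one of the 6 libraries (up to 0.13).

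Tumour cell libraries of the same number deviated together, though in co-culture at 24 h against 0 h 2 of 6 correlated best with their own number. With the number as a block more members passed. In co-culture at 24 h 7 fell with the block, against 5.03% of all genes called lower and 9.28% in either direction, and 9 in libraries 002 and 003 alone, against 11.4% and 22.6%. The 7 were Nqo1, Txnrd1 (-0.55 ± 0.14), Srxn1 (-0.64 ± 0.14), Slc7a11 (-0.67 ± 0.20), Taldo1 (-0.54 ± 0.11), Pgd (-0.37 ± 0.11) and Nfe2l2 (-0.20 ± 0.06), with edgeR adjusted p of 0.00234 to 0.0489. Without the block 9 members, all but G6pdx, were lower in every 24 h library than in any 0 h library, against 8.74% of all genes. In mono-culture 4 fell with the block, Nqo1, Txnrd1, Srxn1 (-0.50 ± 0.14) and Taldo1 (-0.42 ± 0.11), against 15% called lower and 27.9% in either direction, and without it 6 lay lower in every 24 h library, against 17.4% of all genes.

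Srxn1 illustrates the spread by number, with 61.5, 73.9 and 69.1 CPM at 24 h in co-culture, against 88.3, 111 and 123 CPM at 0 h, where library 001 was the lowest at both times (-0.65 ± 0.17, edgeR adjusted p = 0.101 without the block and 0.012 with it). Without 0 h library 001 Srxn1 passed (0.0341). Slc7a11 had 52.9, 35.4 and 34.7 CPM at 24 h, against 76.0, 55.4 and 63.8 CPM at 0 h, where library 001 was the highest. G6pdx did not move in co-culture beyond its error, with 177, 152 and 169 CPM at 24 h, against 191, 151 and 157 CPM at 0 h (0.00 ± 0.13, adjusted p = 0.995). The difference between cultures in the 24 h change had 0 members passing by edgeR and by DESeq2, 0 with an unadjusted p under 0.05, and 0% of all genes.

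At 6 h tumour cells had 0 members called in mono-culture, against 0.00735% of all genes, and 0 in co-culture, against 0.0147%, and DESeq2 also called 0. In mono-culture 3 members had an unadjusted p under 0.05, as had 816 of the 13603 genes tested, and in co-culture 0 members had. Gclm had 61.8, 61.2 and 69.9 CPM at 6 h in mono-culture, against 58.2, 37.6 and 37.2 CPM at 0 h (0.54 ± 0.20, edgeR adjusted p = 0.64). Its libraries did not overlap, as for 4.73% of all genes (higher at 6 h), and library 001 at 0 h came near the 6 h values. In libraries 002 and 003 alone 6 members rose at 6 h in mono-culture, against 3.04% of all genes called higher and 6.18% in either direction, namely Gclm (0.80 ± 0.08), Gclc (0.74 ± 0.09), Srxn1 (0.65 ± 0.08), Txnrd1 (0.42 ± 0.09), Pgd (0.36 ± 0.07) and G6pdx (0.27 ± 0.07). In co-culture Gclc (0.41 ± 0.08) and Srxn1 (0.36 ± 0.08) did so, against 1.21% higher and 2.98% in either direction. Macrophage RNA in libraries 002 and 003 of mono-culture was 1.88% and 0.669% at 6 h, against 0.359% and 0.446% at 0 h, and its part in the rise was not tested.

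Co-culture went with no called change of these genes in tumour cells. At 0 h and 6 h 0 members and 0% of all genes passed by edgeR, and at 24 h 0 members and 0.0809% of all genes, while DESeq2 called 0 members at each time. All 10 differences were above 0 at 0 h, from 0.13 for Gclc to 0.44 for Gclm, with a median of 0.29, against -0.00 over all genes. Of the members 4 had an unadjusted p under 0.05, as had 698 of the 13603 genes tested. Co-culture libraries lay wholly above those of mono-culture for Nqo1, Pgd and Nfe2l2 at 0 h, as for 4.81% of all genes, and for Txnrd1 and Pgd at 24 h, as for 10.2%. At 6 h and 24 h 0 members had an unadjusted p under 0.05. In libraries 002 and 003 alone 8 members were higher in co-culture at 0 h, against 8.19% of all genes called higher and 15.8% in either direction. They included Gclm, with 62.1 and 64.1 CPM in co-culture, against 37.6 and 37.2 CPM in mono-culture (0.75 ± 0.08, edgeR adjusted p = 2.51e-05), and Srxn1 (0.53 ± 0.08, 0.000608). Macrophage RNA in these libraries was 2.33% and 1.66% in co-culture, against 0.359% and 0.446% in mono-culture, and its part in the difference was not tested. In library 001 Gclm went the other way, with 54.0 CPM in co-culture and 58.2 CPM in mono-culture.

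The change of Gclm at 24 h differed between the cell types in mono-culture. This test was added after the values were seen and asks whether the change from 0 h to 24 h in macrophages differs from that in tumour cells. In mono-culture Gclm changed by -1.38 ± 0.21 in macrophages and by 0.08 ± 0.20 in tumour cells, a difference of -1.44 ± 0.30 (edgeR adjusted p = 0.00632). It was the 1 member called, against 1.58% of all genes called lower and 3.9% in either direction, and the call held under all 18 alternatives. In libraries 002 and 003 alone Taldo1 (-0.86), G6pdx (-0.88) and Pgd (-0.65) were called as well, against 8.12% and 13.1%. In co-culture 0 members passed by edgeR and by DESeq2, while 0.305% of all genes passed. There 3 members had an unadjusted p under 0.05, as had 1627 of the 14776 genes tested. The difference for Gclm was then -0.78 ± 0.30 (adjusted p = 0.31). The changes of Txnrd1 and Srxn1 differed between the cell types by 0.05 or less in mono-culture, with an SE of 0.25 and 0.22.

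Other genes of the pathway were read from lists. Their counts stand against the shares of all genes given above, which at 24 h against 0 h were 15.2% called in either direction in mono-cultured and 11.4% in co-cultured macrophages. Keap1 changed by 0.15 ± 0.12 in mono-cultured macrophages at 24 h and by 0.13 ± 0.12 in co-cultured ones, with edgeR adjusted p of 0.447 and 0.528, and passed in no comparison within a cell type. Of 12 genes of NRF2 control, 1 rose and 2 fell in mono-cultured macrophages at 24 h. NRF2's relative Nfe2l1 fell by 0.38 ± 0.08 and NRF2's partner Mafg by 0.29 ± 0.07. Bach2 rose by 1.10 ± 0.31 (edgeR adjusted p = 0.0264) at low levels, from a mean of 1.49 CPM at 0 h to 3.18 CPM at 24 h. The 2 that fell stand against 7.61% of all genes called lower. Bach1, the repressor that competes with NRF2, was lower in co-cultured than in mono-cultured macrophages at 0 h (-0.41 ± 0.10, edgeR adjusted p = 0.00879) and 24 h (-0.50 ± 0.10, 0.00116). In tumour cells Bach1 fell by 0.32 ± 0.07 in co-culture and 0.24 ± 0.07 in mono-culture at 24 h, and the small MAF gene Maff fell by 1.18 ± 0.20 and 1.29 ± 0.20.

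Of 18 other NRF2 targets tested in mono-cultured macrophages 3 rose and 7 fell at 24 h, so that the list did not move one way, and in co-cultured ones 1 rose and 5 fell, where 7.61% and 6.02% of all genes fell. Ephx1, an epoxide hydrolase, rose to 109 CPM at 24 h in mono-culture, against 36.1 CPM at 0 h (1.56 ± 0.16, edgeR adjusted p = 2.09e-05), and to 69.1 CPM at 24 h in co-culture, against 28.8 CPM at 0 h (1.21 ± 0.16). Co-cultured tumour cells held Ephx1 at 404 CPM at 24 h and 309 CPM at 0 h, and the part of their RNA in the co-culture value was not tested. Osgin1 fell by 1.02 ± 0.16 in mono-culture and 0.87 ± 0.16 in co-culture, and Me1, the cytosolic malic enzyme that yields NADPH, fell by 1.06 ± 0.30 in mono-culture (adjusted p = 0.027). Hmox1, heme oxygenase, did not pass at 24 h, with 0.10 ± 0.17 in mono-culture (adjusted p = 0.748) and 0.33 ± 0.17 in co-culture (adjusted p = 0.223). Its mean at 6 h was 655 CPM in mono-culture, against 420 CPM at 0 h, and 512 CPM in co-culture, against 322 CPM. At 6 h 0 of the 18 targets passed in either culture, where 2.15% and 0.213% of all genes did. Between the cultures, 9, 8 and 10 of the 18 targets were lower in co-culture at 0 h, 6 h and 24 h and 0 higher, among them the catalase gene Cat (-0.95 ± 0.15, -0.73 ± 0.15 and -1.08 ± 0.15) and the biliverdin reductase gene Blvrb (-0.77 ± 0.17, -0.74 ± 0.17 and -0.87 ± 0.17). Of all genes 6.02%, 4.12% and 13.7% were lower at those times. The list's median difference at those times was -0.41, -0.44 and -0.32.

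Of 16 further genes of NADPH supply 7 fell in mono-cultured and 5 in co-cultured macrophages at 24 h, and none rose, where 7.61% and 6.02% of all genes fell. Tkt, the transketolase that works beside Taldo1, had 435 CPM at 24 h in mono-culture, against 766 CPM at 0 h (-0.85 ± 0.09, edgeR adjusted p = 3.6e-05), and 370.1 CPM at 24 h in co-culture, against 709.8 CPM at 0 h (-0.99 ± 0.09). Aldh1l1, a folate dehydrogenase that yields NADPH, fell by 1.76 ± 0.20 in mono-culture and 1.55 ± 0.20 in co-culture. Aldh1l2, its mitochondrial relative, was higher in libraries of co-cultured than of mono-cultured macrophages at 24 h (4.66 ± 0.48), at 7.18 CPM in co-culture against 0.246 CPM in mono-culture. Co-cultured tumour cells held it at 191.6 CPM, and their RNA made up a mean of 4.78% of these co-culture libraries. The part of that RNA in the difference was not tested. In tumour cells 3 of 17 fell in mono-culture at 24 h, among them Tkt (-0.33 ± 0.09), where 6.81% of all genes fell.

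In the thioredoxin and peroxiredoxin list of 18, 2 rose and 3 fell in mono-cultured macrophages at 24 h and 2 rose and 6 fell in co-cultured ones, where 15.2% and 11.4% of all genes were called. Prdx1, the cytosolic peroxiredoxin that Srxn1 repairs, fell by 0.62 ± 0.17 in mono-culture (edgeR adjusted p = 0.0247) and 0.77 ± 0.17 in co-culture (0.0097), and was lower in co-culture than in mono-culture at 24 h (-0.90 ± 0.17, 0.0012). Txn1, the substrate of Txnrd1, fell by 0.54 ± 0.11 in co-culture and had -0.20 ± 0.11 in mono-culture (adjusted p = 0.244). In tumour cells Txn1 fell by 0.62 ± 0.10 in mono-culture. Of 23 tested genes of the glutathione system 2 rose and 2 fell in mono-cultured macrophages and 1 rose and 4 fell in co-cultured ones, and the first count is near the 15.2% of all genes called in that comparison. Glutathione reductase, Gsr, fell by 0.61 ± 0.16 in co-culture (adjusted p = 0.0217) and had -0.44 ± 0.16 in mono-culture (0.0748). Of the 7 NADPH oxidase genes 5 were lower in co-cultured than in mono-cultured macrophages at 24 h and 1 higher, including the catalytic subunit gene Cybb (-0.95 ± 0.16) and the cytosolic subunit gene Ncf4 (-1.12 ± 0.11). Of all genes 28% were called in that comparison and 13.7% were lower.

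The members differed in how closely they kept to their common pattern. The pattern was the mean of the log2 levels of the 9 members other than Nfe2l2 over the 12 group means, each centred within its cell type, and likeness was the root mean square distance from it. Txnrd1 lay closest, at 0.07, followed by Pgd at 0.11 and Taldo1 at 0.13. G6pdx (0.29) and Nfe2l2 (0.32) lay furthest, Nqo1 (0.26), Slc7a11 (0.24) and Gclm (0.21) between. Of 12056 other genes the nearest were Esd, the glutathione-linked esterase D (0.11), Gbe1, the glycogen branching enzyme (0.11), Gsr (0.14), Tma16 (0.14) and Pip5k1c (0.15). Each of the 9 members is part of the mean it was measured against, which lowers its distance, while Nfe2l2 and the other genes are not. These distances describe 12 group means and carry no test.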

How the data were processed

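RNA from FACS-purified cells was reverse-transcribed with oligo-dT and template switching, per the labels' protocols. The authors deposited raw counts per gene for all 36 libraries in a single table. The build was mm10, per the submitters' processing notes, while the sources used here name no aligner, counting tool or strand setting. Without molecular identifiers the counts include PCR duplicates.

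From the deposited counts, genes were filtered with filterByExpr, normalised by TMM and tested with edgeR 4.0.16 quasi-likelihood fits (R 4.3.3, limma 3.58.1), with calls at 0.05 after Benjamini-Hochberg adjustment over all genes. Macrophages (13165 genes) and tumour cells (13603) were fitted apart, with 18 libraries and 6 groups each, and a fit of all 36 (14776) served contrasts between the cell types. The SE is the log2 change divided by the square root of F. Fits were tested on simulated data. Alternatives were RLE size factors, DESeq2 1.42.0, no filter, the compared groups alone, a replicate block, each library left out and libraries 002 and 003 alone.

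The members and the lists were chosen with earlier results of these data known. The text names all members, Keap1, Bach1, Hmox1, Me1, Gsr, Txn1, Prdx1 and Tkt, up to 3 called genes of largest change per list and comparison, and the 5 genes nearest to the members' pattern. Genes named in several comparisons outside this rule were chosen after their values were seen.

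Pairing by library number was checked by correlating the deviations of same-numbered libraries from their group means, with a limit of 0.1 for every pair. By this limit the numbers paired libraries in all tumour cell comparisons (lowest r 0.325). They also did so in macrophages at 6 h or 24 h against 0 h (0.157) and between macrophage cultures at 0 h (0.288). In co-cultured tumour cells, however, 3 of 6 libraries at 6 h against 0 h correlated best with their own number. At 24 h against 0 h 2 of 6 did, so a match of library to library was not shown there.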

Additional observations from a re-analysis of the deposited data

Results flagged for a closer look

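The change of Gclm at 24 h after myelin differed between macrophages and tumour cells of mono-culture by -1.44 on the log2 scale (SE 0.30, edgeR adjusted p = 0.00632), in a comparison chosen after the values were seen. Gclm had 81.4, 94.6 and 81.2 CPM at 24 h in macrophages, against 174, 280.1 and 203 CPM at 0 h, a change of -1.38. It had 54.8, 41.3 and 44.5 CPM at 24 h in tumour cells, against 58.2, 37.6 and 37.2 CPM at 0 h, a change of 0.08. Every macrophage library was lower at 24 h than any at 0 h, while the tumour cell libraries overlapped. In co-culture the difference between the cell types was -0.78 and did not pass (edgeR adjusted p = 0.31).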

How the results depend on the processing

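Counts of members called moved by over 1.5 times in these cases. In macrophages between cultures, fitting the compared groups alone gave 2 at 0 h and 3 at 6 h, and libraries 002 and 003 alone 2 at 6 h. In tumour cells at 24 h of mono-culture the count was 1 without the filter, 4 with the replicate block, 7 in libraries 002 and 003 (6 lower and G6pdx higher) and 1 after removing genes that the other cell type holds at over 20 times the level, a setting chosen after seeing the data. In co-culture it was 7 with the replicate block, 9 in libraries 002 and 003, 3 by DESeq2 and 0 with the compared groups alone. Libraries 002 and 003 alone gave tumour cells 6 at 6 h in mono-culture and 2 in co-culture, 8 and 2 between cultures at 0 h and 24 h, and 1 for the difference between cultures in the 24 h change, and gave 4 in mono-culture and 2 in co-culture for the difference between the cell types. The cause was not tested. The share of all genes called moved as well. In co-cultured tumour cells at 24 h it went from 0.787% to 9.28% with the replicate block and 22.6% in libraries 002 and 003. In mono-culture it went from 10.5% to 27.9% with the block. In libraries 002 and 003 alone it was 6.18% in mono-cultured and 2.98% in co-cultured tumour cells at 6 h. Between tumour cell cultures at 0 h it was 15.8% there, and 13.1% for the difference between the cell types in mono-culture. A count of members is therefore to be read beside the share of all genes in the same setting. Counts given here without that share cannot show whether the members alone or all genes moved. Leaving out a library in turn gave 2 to 6 members between macrophage cultures at 0 h, 1 to 4 at 6 h and 5 to 7 at 24 h, 5 to 8 in mono-cultured and 4 to 8 in co-cultured macrophages at 24 h, and 1 to 1 in mono-cultured and 0 to 2 in co-cultured tumour cells at 24 h. The share of all genes called was not recorded in these runs, so whether calls of other genes moved alike cannot be told. No called value changed sign under any setting, while values called in neither setting changed sign 104 times when a library was left out, 11 times in libraries 002 and 003 alone and 2 times in each other setting.

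Library numbers did not pair macrophage libraries between cultures at 6 h (lowest r -0.0197) or 24 h (0.0661), where 4 of 6 correlated best with their own number. The replicate block moved no other count by over 1.5 times. Depth limits Nqo1 most, at 72 counts in its lowest library.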
